A study of Mus musculus with 2 samples.

Results

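The genes described here are Lcn2, Lrg1, Orm1, Saa3, Hp, Cp, Chil1 and Glrx, 8 of the 31053 genes measured, which had been put together as acute-phase genes of activated alveolar type 2 (AT2) cells. They were chosen by symbol, and each symbol matched 1 row in both matrices. The lungs came from 2 groups of mice of 8 to 10 weeks, Pclaf wild type (WT) and Pclaf knockout (KO), both taken 1 week after bleomycin at 1.35 U/kg was instilled into the lung. Bleomycin injures the alveolar epithelium, and Pclaf encodes a cofactor of the replication clamp PCNA that marks dividing cells. Cells sorted as negative for Cd31 and Cd45 and positive for Epcam were made into droplet libraries, 1 per genotype, in which each RNA molecule is counted once by its molecular identifier (UMI). Every animal received bleomycin, no untreated lung is analysed here, and the number of animals behind each library is not given in the sources used here. With 1 library per genotype, no difference between genotypes could be set against the spread between animals, so no test was run and every interval covers counting error only.

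Acute-phase proteins are secreted proteins whose synthesis rises with inflammation, classically in the liver under interleukin 6 and interleukin 1, through STAT3, C/EBP and NF-kB factors. Epithelia and stromal cells make several of them locally. AT2 cells secrete surfactant, serve as progenitors of the alveolus after injury, and release host defense proteins onto the alveolar surface.

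The WT library held 30669 barcodes and 98171818 UMIs, and the KO library 17172 barcodes and 111267567 UMIs, against 16000 cells loaded per group according to the labels. After filtering, 30187 and 15637 cells remained, with median depths of 2127 and 5957 UMIs, and 138 of the kept barcode sequences occurred in both libraries. Despite the sort, 28.8% of kept WT cells were endothelial and 43.2% immune, against 3.06% and 3.92% of kept KO cells, so the endothelial and immune levels of the KO library rest on few cells. Pclaf itself was lower but still counted in the library labelled KO, at 83.4 counts per 1000000 UMIs (CPM) in its dividing alveolar cells against 158.8 CPM in the WT library, a log2 ratio of -0.93 (-1.45 to -0.36). Reads were taken from the 3' end of transcripts, so a tag outside the deleted part would still be counted and the label cannot be checked this way. The AT2-like class, named from surfactant and other AT2 markers, held 505 WT cells with 2432320 UMIs and 6276 KO cells with 43757496 UMIs. Sftpc, surfactant protein C, stood at 139760 and 166810 CPM there.

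The promoters of the genes that the results turn on are shown first, so that the motifs of the factors named above can be set beside where each gene was expressed. Promoters of 6 of the 8 genes were found in RefSeq (GRCm38.p6), each running from 250 bases before to 50 bases after the annotated start. Orm1 and Hp were not among them. Capitals mark matches, on either strand, to the STAT motif TTCNNNGAA, the C/EBP motif TTGCNNAA or the NF-kB consensus. No marked match overlaps another. The sequences of Lcn2 (chr2:32387690-32387989, minus strand), Chil1 (chr1:134181906-134182205, plus strand) and Lrg1 (chr17:56121897-56122196, minus strand), the genes that varied together in AT2-like cells, are followed by those of Saa3 (chr7:46715627-46715926, minus strand) and Cp (chr3:19956999-19957298, plus strand, the downstream of its annotated starts), which were highest in mesenchymal cells.
Lcn2: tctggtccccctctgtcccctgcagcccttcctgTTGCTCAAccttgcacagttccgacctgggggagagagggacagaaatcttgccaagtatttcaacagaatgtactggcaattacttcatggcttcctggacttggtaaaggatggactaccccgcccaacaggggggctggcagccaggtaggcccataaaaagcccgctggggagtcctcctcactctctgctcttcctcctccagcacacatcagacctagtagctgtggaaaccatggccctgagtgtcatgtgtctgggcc
Chil1: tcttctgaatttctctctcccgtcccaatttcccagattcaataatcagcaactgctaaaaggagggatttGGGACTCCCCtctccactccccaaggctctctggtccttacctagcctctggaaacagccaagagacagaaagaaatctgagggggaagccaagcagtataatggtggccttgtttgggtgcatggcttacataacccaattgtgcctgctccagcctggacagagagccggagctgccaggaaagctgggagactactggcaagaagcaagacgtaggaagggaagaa
Lrg1: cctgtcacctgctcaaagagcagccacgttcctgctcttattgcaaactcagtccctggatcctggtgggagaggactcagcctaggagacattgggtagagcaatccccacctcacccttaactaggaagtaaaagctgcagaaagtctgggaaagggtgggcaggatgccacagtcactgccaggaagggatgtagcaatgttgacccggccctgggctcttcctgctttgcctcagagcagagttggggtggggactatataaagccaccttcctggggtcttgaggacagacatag
Saa3: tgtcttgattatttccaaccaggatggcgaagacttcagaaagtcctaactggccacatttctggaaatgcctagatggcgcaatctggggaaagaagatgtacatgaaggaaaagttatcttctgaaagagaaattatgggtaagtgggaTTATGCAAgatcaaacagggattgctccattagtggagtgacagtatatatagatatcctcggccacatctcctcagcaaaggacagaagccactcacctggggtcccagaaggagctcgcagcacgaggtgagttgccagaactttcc
Cp: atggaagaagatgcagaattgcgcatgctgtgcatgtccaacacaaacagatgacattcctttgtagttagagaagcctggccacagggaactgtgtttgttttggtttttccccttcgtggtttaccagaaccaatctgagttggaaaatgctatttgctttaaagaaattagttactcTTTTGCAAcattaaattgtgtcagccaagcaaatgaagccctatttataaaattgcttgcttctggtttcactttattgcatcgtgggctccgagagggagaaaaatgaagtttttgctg
The C/EBP motif was found in 3 of the 6 genes, Lcn2 at -216 to -209, Saa3 at -99 to -92 and Cp at -70 to -63 from the start, and 12.2% of the 27025 genes in the table carried it. The NF-kB consensus was found in Chil1 alone, at -179 to -170, against 5.14% of all genes. The STAT motif was in 0 of the 6 genes and in 9.55% of all genes. A match describes the letters of this window and says nothing of whether a factor binds. The genes lie on 8 different chromosomes and are all annotated as protein coding: Lcn2 at chr2:32384633-32388252, Lrg1 at chr17:56119678-56122001, Orm1 at chr4:63344560-63348163, Saa3 at chr7:46711998-46715700, Hp at chr8:109575128-109579172, Cp at chr3:19957054-20009145, Chil1 at chr1:134182176-134190181 and Glrx at chr13:75839868-75850154 (GENCODE M21, GRCm38).

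The 8 genes did not share a cell type. UMIs were summed over the cells of a class and expressed as CPM. The AT2-like level was at least 2-fold above each of the airway, endothelial, mesenchymal and immune groups for 2 of the 8 genes, Lcn2 and Chil1, in the WT library and again in the KO library. Over all genes tested the share was 3.60% of 18277 genes in the WT library and 2.83% of 18150 genes in the KO library. Hp was highest in airway secretory cells, Cp and Saa3 in mesenchymal cells, Orm1 in ciliated cells, and the classes highest in Glrx had overlapping intervals. Lrg1 was shared by AT2-like and endothelial cells.

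**Figure D1:**
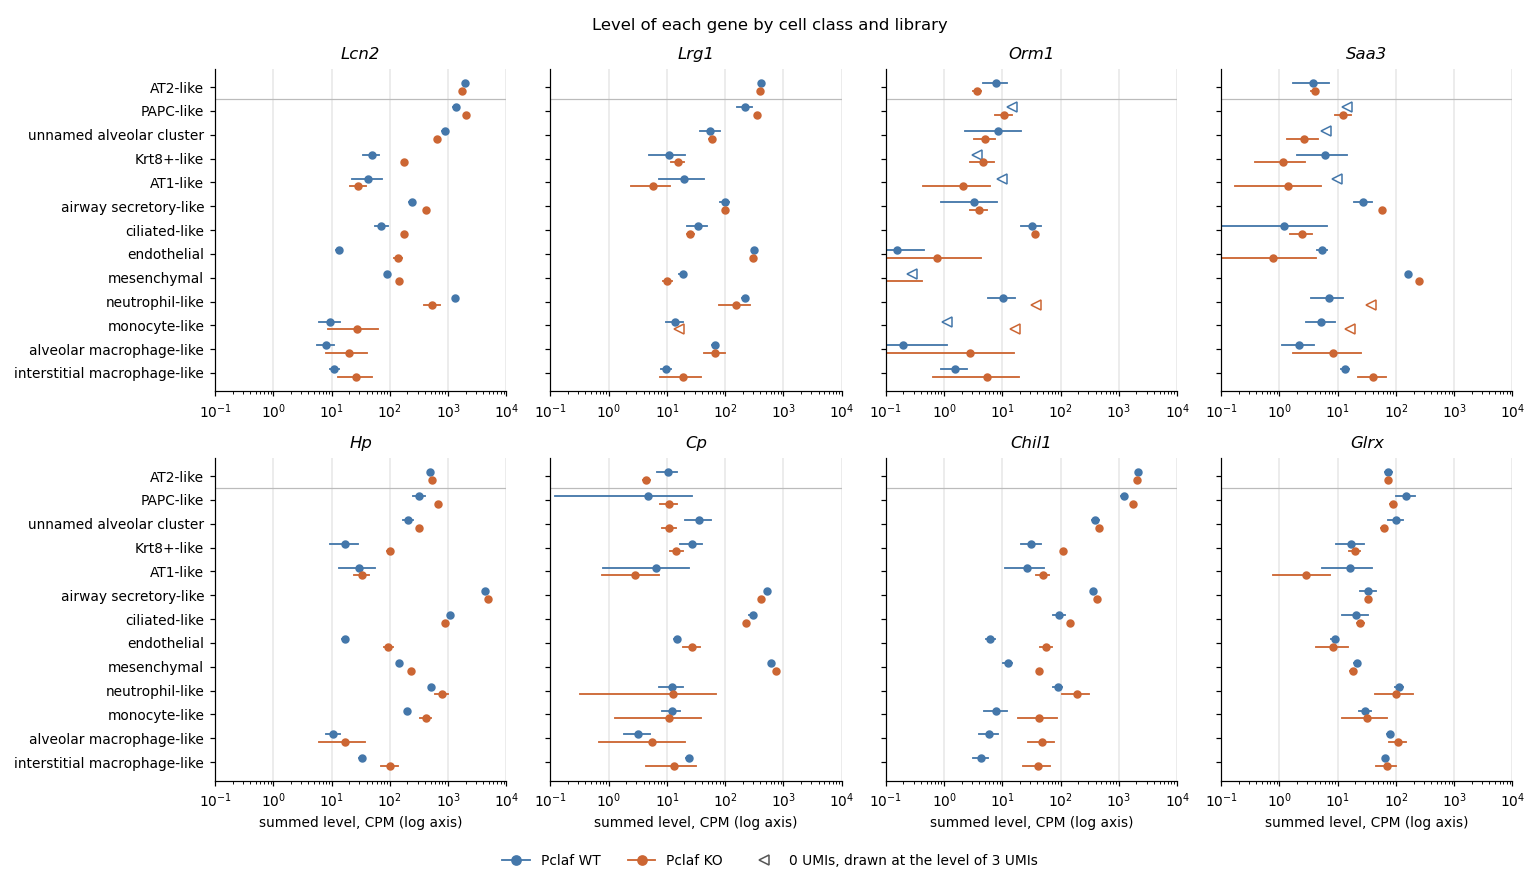
Level of each gene (CPM, log axis) by cell class, as points with exact 95% Poisson intervals for the Pclaf WT and Pclaf KO libraries, open triangles marking 0 UMIs, drawn at the level of 3 UMIs. Lcn2 and Chil1 stand at 1733 to 2096 CPM in AT2-like cells, Hp peaks in airway secretory-like cells at 4287 and 4863 CPM, and Cp and Saa3 peak in mesenchymal cells.

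Among the metal- and hemoglobin-binding proteins, Lcn2 (lipocalin 2, which withholds iron from bacteria by binding their siderophores) reached 1980 CPM (1924 to 2036) in the AT2-like cells of the WT library and 1733 CPM (1721 to 1746) in those of the KO library. The dividing alveolar cells, named PAPC-like for proliferating alveolar progenitor cells, held 1357 and 2036 CPM in 37 and 387 cells. In the WT library AT2-like cells led and PAPC-like and neutrophil-like cells, at 1325 CPM in the latter, had overlapping intervals. In the KO library the PAPC-like cells led. Lcn2 is also a protein of neutrophil granules, and in the WT library the top 5% of neutrophil-like cells held 68.2% of the Lcn2 UMIs of that class. AT2-like cells were 11.7-fold above the airway group in WT and 5.84-fold in KO, and 146-fold above endothelial cells in WT against 12.6-fold in KO.

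Hp, haptoglobin, captures free hemoglobin. It stood at 481 CPM (454 to 509) and 537 CPM (530 to 544) in WT and KO AT2-like cells and at 4287 CPM (4172 to 4403) and 4863 CPM (4820 to 4905) in airway secretory-like cells. The airway group as a whole was thus above AT2-like cells, which reached 0.164 and 0.186 of its level. Ciliated-like cells followed at 1083 and 880 CPM, then neutrophil-like cells at 505 and 779 CPM. Secretory cells were not uniform: the larger club-like cluster, led by Fat3, Retnla and Scgb1a1, held 5046 and 5903 CPM. The goblet-like cluster, led by Bpifb1 and Scgb3a1, held 1523 CPM in 13 WT cells and 2667 CPM in 96 KO cells. The other club-like cluster, of 53 and 388 cells and led by Retnla, Scgb1a1 and A2ml1, was at 1502 and 2724 CPM. The high level thus belonged to 1 club-like cluster and did not separate club-like from goblet-like cells. Median depth over both libraries was 13039 UMIs in the larger club-like cluster, 2939 in the other and 14181 in the goblet-like cluster.

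Cp encodes ceruloplasmin, the copper protein that oxidizes iron. In AT2-like cells it was counted 25 times in WT and 195 times in KO, that is 10.3 CPM (6.65 to 15.2) and 4.46 CPM (3.85 to 5.13). Mesenchymal cells held 608 CPM (593 to 623) and 743 CPM (728 to 758), airway secretory-like cells 525 and 415 CPM, and ciliated-like cells 296 and 228 CPM. These 3 classes led in this order in both libraries, with no overlap between neighbours. A mesenchymal cluster led by C7, Mfap5 and Col1a2 held the most, 846 and 836 CPM, and the cluster led by the smooth muscle genes Acta2 and Myh11 the least, 81.5 and 104 CPM.

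Among the secreted glycoproteins, Chil1 (chitinase-like 1, which binds chitin without cutting it) also led in AT2-like cells. The WT level there was 2096 CPM (2038 to 2154) and the KO level 2037 CPM (2024 to 2051), then 1222 and 1746 CPM in PAPC-like cells and 360 and 420 CPM in airway secretory-like cells. AT2-like cells were 8.47-fold and 7.03-fold above the airway group and 337-fold and 35.6-fold above endothelial cells. Per 1000 Sftpc UMIs there were 15.0 and 12.2 Chil1 UMIs in AT2-like cells and 18.4 and 16.2 in endothelial cells. The part of AT2 RNA in the endothelial level was not tested. Mesenchymal cells gave 18.6 and 13.4 as a whole, yet their Chil1 was uneven: the Acta2 and Myh11 cluster held 37.2 and 128 CPM and the C7 cluster 3.70 and 31.9 CPM. Neutrophil-like cells gave 82.2 and 49.8. Airway secretory-like cells, at 84.3 and 35.2 per 1000, were also above the AT2 ratio.

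Lrg1, leucine-rich alpha-2-glycoprotein, is secreted and known for acting on TGF-beta signaling in blood vessels. It stood at 415 CPM (390 to 441) and 397 CPM (391 to 403) in AT2-like cells and at 315 CPM (307 to 323) and 305 CPM (276 to 336) in endothelial cells, 1.32-fold and 1.30-fold lower. AT2-like cells led in both libraries, with intervals apart, and endothelial cells came next in WT, while in KO the intervals of endothelial and PAPC-like cells, the latter at 345 CPM, overlapped. Within endothelial cells the level was highest in a cluster of 443 WT and 34 KO cells led by Ccl21a, Slc6a2, Vwf and Selp, genes of lymphatic and of venous endothelium, with 926 and 869 CPM. That cluster held 2056 of 6138 WT and 167 of 400 KO endothelial Lrg1 UMIs. Without the barcode richest in Lrg1 its level was still 905 and 690 CPM, against 244 and 203 CPM in the largest endothelial cluster, which held 3567 and 190 UMIs. Hp in the same cluster, 73.4 and 406 CPM, came mainly from single barcodes: 103 of 163 UMIs in WT and 78 of 78 in KO lay in 1 barcode each, and without these it was 27.3 and 0 CPM.

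Orm1, orosomucoid, is an abundant plasma protein that binds drugs and lipids. Only 19 WT and 160 KO UMIs were counted in AT2-like cells, 7.81 CPM (4.70 to 12.2) and 3.66 CPM (3.11 to 4.27), and 0.818% and 0.290% of cells held a UMI after every cell was thinned to 1000 UMIs. Ciliated-like cells were highest in both libraries, at 32.3 CPM (21.3 to 47.0) and 36.9 CPM (33.0 to 41.0). Mesenchymal cells held 0 UMIs in WT, which allows up to 0.276 CPM, and 1 UMI in KO.

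Saa3, serum amyloid A3, is the amyloid A protein made outside the liver. AT2-like cells held 9 and 175 UMIs, 3.70 CPM (1.69 to 7.02) and 4.00 CPM (3.43 to 4.64). In mesenchymal cells the level was 162 CPM (155 to 170) and 245 CPM (236 to 253), yet only 3.43% and 3.72% of thinned mesenchymal cells held a UMI. The top 5% of mesenchymal cells carried 100% of the UMIs in WT and 99.8% in KO, with up to 273 and 337 UMIs in a cell, so the mesenchymal level came from few cells. Airway secretory-like cells, at 27.3 and 58.6 CPM, and mesothelial cells, at 24.3 and 61.0 CPM, followed with overlapping intervals.

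Glrx, glutaredoxin 1, is a cytosolic enzyme that removes glutathione from protein thiols and is not a secreted protein. AT2-like cells held 74.4 CPM (64.0 to 86.1) and 71.9 CPM (69.4 to 74.4). Alveolar macrophage-like cells, at 78.8 and 107 CPM, and neutrophil-like cells, at 113 and 101 CPM, stood at or above them, and PAPC-like cells held 149 and 87.4 CPM. The AT2-like level was 1.49-fold above the immune group as a whole in WT and 1.03-fold in KO, the latter with an interval of the log2 ratio from -0.20 to 0.30.

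Shares of cells with a UMI were compared at equal depth. At 1000 UMIs per cell, with 16 WT and 76 KO AT2-like cells left out as shallower, Chil1 was found in 72.2% and 75.7%, Lcn2 in 59.5% and 54.0%, Hp in 36.4% and 35.4%, Lrg1 in 28.02% and 21.10% and Glrx in 6.95% and 5.58% of AT2-like cells. Without thinning, Chil1 was found in 93.9% and 95.5% and Lcn2 in 84.8% and 87.0%. B-like cells, which should lack these proteins, gave the background: 0.656% and 6.45% for Chil1 and 1.04% and 0% for Lcn2, the KO values from 62 cells (0 of 62 allows up to 4.84%). Median depths were 4747 and 6707 UMIs in AT2-like cells and 1867.5 and 2248 UMIs in B-like cells. Cp, found in 0.818% and 0.387% of AT2-like cells, and Saa3, found in 0.409% and 0.371%, were not above their shares of WT B-like cells, 1.74% and 0.502%, with overlapping intervals in the WT library. The 62 KO B-like cells, of which 1 held Cp and 0 held Saa3, were too few to give a background for KO. Orm1, at 0.818% and 0.290%, was found in 0 of 2590 WT B-like cells, which allows up to 0.116%. Cp, Saa3 and Orm1 were thus each found in under 1% of AT2-like cells at this depth, which the label does not convey, while Lcn2, Lrg1, Hp and Chil1 were each found in over 20% of AT2-like cells of both libraries.

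Summed over all AT2-like cells, the libraries differed little in the genes with many UMIs. On the log2 scale, the KO level divided by the WT level gave -0.19 (-0.23 to -0.15) for Lcn2, -0.04 (-0.08 to 0.00) for Chil1, -0.06 (-0.16 to 0.03) for Lrg1, 0.16 (0.08 to 0.25) for Hp and -0.05 (-0.27 to 0.17) for Glrx. The KO level of Lcn2 was thus 0.876 of the WT level, and that of Hp 1.12 times it. The rare genes spread further: -1.09 (-1.78 to -0.33) for Orm1, -1.21 (-1.81 to -0.54) for Cp and 0.11 (-0.85 to 1.26) for Saa3, on 9 to 25 UMIs in WT.

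None of the 8 genes was at least 2-fold higher in KO, against 4.80% of 14926 genes with at least 10 UMIs, and Orm1 and Cp were at least 2-fold lower, against 8.09%. Both calls depended on the processing: Orm1 was at -0.93 with TMM factors and Cp at -0.65 when 1 in 6 KO cells were drawn. Hp and Saa3 were higher in KO by any amount, 2 of 8 against 34.5% of genes. The median log2 ratio was -0.06 over the 8 genes and -0.14 over all 14926. Summed over the 8 genes, the WT level was 5067 CPM and the KO level 4789 CPM, a log2 ratio of -0.08 (-0.11 to -0.05), and this sign turned with scaling by trimmed mean of M-values (TMM) factors, which gave 0.08 and moved the median of all genes by 0.16. With TMM factors 5 of the 8 genes and 53.1% of all genes were higher in KO.

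**Figure D2:**
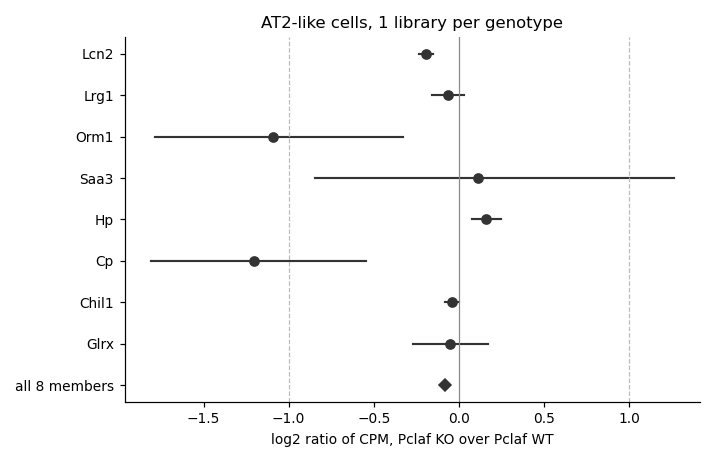
The log2 ratio of CPM in AT2-like cells, KO over WT, for each gene (circles) and for their sum (diamond), with exact 95% intervals for counting error. Dashed lines mark 2-fold. Lcn2, Lrg1, Hp, Chil1 and Glrx lie between -0.19 and 0.16, and Orm1 and Cp lie below -1 with wide intervals.

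Outside AT2-like cells the Lcn2 difference went both ways. PAPC-like cells held 2036 CPM in KO against 1357 CPM in WT, a log2 ratio of 0.585 (0.413 to 0.762). In these cells Hp was also higher in KO, 673 against 318 CPM, while Glrx was lower, 87.4 against 149 CPM. Lcn2 was higher in the KO library in airway secretory-like cells, 416 against 241 CPM, in ciliated-like cells, 174 against 71.8 CPM, and in mesenchymal cells, 142 against 89.2 CPM. In ciliated-like cells 34 of the 60 WT UMIs lay in 1 barcode, and without the richest barcode of each library the levels were 164 CPM in KO and 32.0 CPM in WT. Lcn2 was lower in the KO library in neutrophil-like cells, 527.5 against 1325 CPM (log2 ratio -1.33, -1.80 to -0.89), on 42 KO UMIs in 41 cells. In WT the top 5% of 788 such cells held 68.2% of these UMIs, and without the richest barcode the level was 1248 CPM. The interval does not cover this unevenness between cells. Lcn2 was also lower in the unnamed alveolar cluster, -0.46. The immune group as a whole gave -0.31, with 2092 of its 2844 WT Lcn2 UMIs in neutrophil-like cells. Cycling immune cells gave -2.05 on 2 KO UMIs. The other named immune classes were higher in KO, from 0.16 in dendritic-like to 4.98 in NK-like cells, on 4 to 18 KO UMIs. Among those, the interval left out 0 in interstitial macrophage-like and NK-like cells alone. The level of Sftpc, which marks AT2 RNA, was also higher in KO in airway secretory-like, ciliated-like and mesenchymal cells. It was 11931 against 4263 CPM, 12756 against 2521 CPM and 3230 against 662 CPM there. Its part in the Lcn2 differences was not tested. Hp in airway secretory-like cells was 1.13-fold higher in KO, and Cp was lower there, at 0.790 of the WT level. In mesenchymal cells Saa3 was 1.51-fold and Cp 1.22-fold higher in KO, but different clusters held most of the class: the Gpx3 and Inmt cluster had 2226 of 4059 WT and 554 of 2838 KO cells. Within clusters Cp was not higher in KO in the C7 cluster, 846 against 836 CPM, or in the Gpx3 cluster, 360 against 321 CPM, and Saa3 was 215.5 against 267 CPM and 150.0 against 285 CPM (WT against KO).

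AT2-like cells formed 6 clusters, and Lcn2 varied most among them of the genes with many UMIs. The genes played no part in the clustering itself. Lcn2 ran from 1271 to 4540 CPM over the clusters in WT, 3.57-fold, and from 924 to 5635 CPM in KO, 6.10-fold, whereas Chil1 varied 1.44-fold and 1.13-fold. The top was the same cluster in both libraries, cluster 7 of 41 WT and 540 KO cells, led by Lyz1, Apoc1 and Fabp5. Cluster 3, led by Acoxl and Snhg11, was lowest in both. In clusters 1, 3, 7 and 13 the libraries differed more in Lcn2 than in the sum over AT2-like cells. In clusters 0 and 2 they differed less, with 2178 against 1988 CPM and 1812 against 1719 CPM (WT against KO). Lcn2 was 2034 against 1359 CPM in cluster 1 and 1851 against 1175 CPM in cluster 13 (WT against KO). It was lower in KO in every cluster but cluster 7, where it was higher, and the intervals overlapped in cluster 2. Cluster 13, led by Ptprb and with Ctla2a among its leading genes, held 50 of 505 WT and 118 of 6276 KO cells. Ctla2a was also among the leading genes of an endothelial cluster. The part of endothelial RNA in cluster 13 was not tested.

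**Figure D3:**
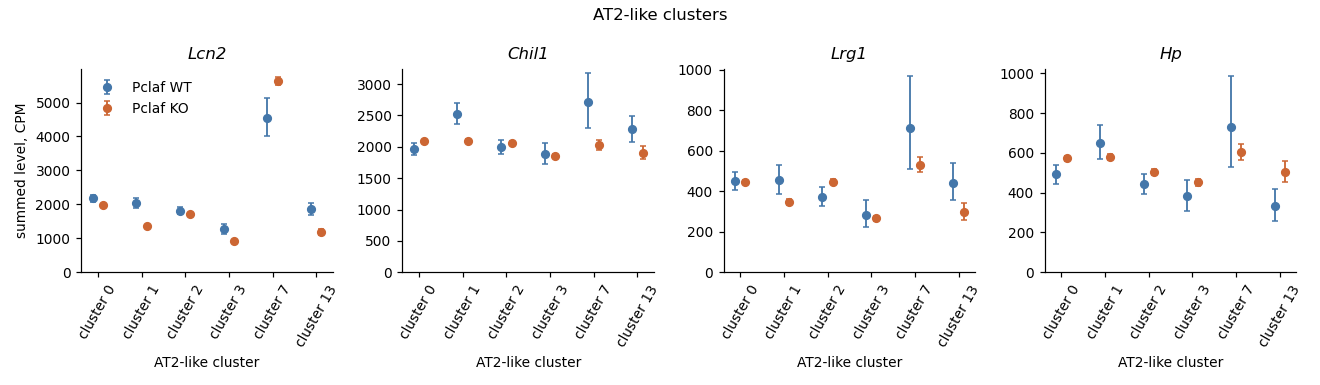
Level of Lcn2, Chil1, Lrg1 and Hp (CPM) in each of the 6 AT2-like clusters for the Pclaf WT and Pclaf KO libraries, with exact 95% Poisson intervals. Lcn2 is highest in cluster 7, at 4540 and 5635 CPM, and Chil1 stays between 1846 and 2713 CPM in all clusters.

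Cluster 7 also stood apart in its RNA. Nuclear-retained RNAs (Malat1, Neat1 and 4 others) made up 209 and 522 CPM there, against 10360 to 24720 CPM in the other clusters, and its median depth was 1276 and 2351 UMIs against 4208 or more. Sftpc was also highest there, at 195000 and 254800 CPM. Over the remaining clusters Lcn2 ranged from 1271 to 2178 CPM in WT and from 924 to 1988 CPM in KO. Hp ranged there from 331.6 to 649.5 CPM in WT, a wider fold than that of Lcn2, and from 451 to 579 CPM in KO. Cluster 3, the lowest in Lcn2, held the most nuclear-retained RNA in both libraries, 23780 and 24720 CPM. Snhg11, among its leading genes, is one of these RNAs. The part of nuclear RNA in these levels was not tested. Cluster 2, led by the immediate-early genes Egr1, Fos, Atf3 and Jun, did not stand out, with 1812 and 1719 CPM of Lcn2.

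Within AT2-like cells, Lcn2, Lrg1 and Chil1 varied together, Hp followed weakly, and the remaining genes were too sparse to read. Correlations are Spearman coefficients over 489 WT and 6200 KO cells thinned to 1000 UMIs, given as descriptions. Cells share a library, and fixed depth makes every gene a share of 1000. Lcn2 with Chil1 gave 0.42 in WT and 0.31 in KO, Lcn2 with Lrg1 0.39 and 0.31, and Lrg1 with Chil1 0.32 and 0.23. Pairs with Hp gave 0.11 to 0.16 in WT and 0.12 to 0.14 in KO. The 6 pairs of these 4 genes had a median of 0.24 and 0.19, against 0.00 over 774390 gene pairs in WT and 0.00 over 564453 in KO, from genes found in at least 10% of cells. Those genes were not matched for level. The median one had a mean of 0.188 UMIs per cell in WT and 0.190 in KO. The 4 genes had means of 0.442 to 1.91 in WT and 0.356 to 1.87 in KO. The part of level in this gap was not tested. Over all 28 pairs of the 8 genes the median was 0.04 in WT and 0.01 in KO.

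**Figure D4:**
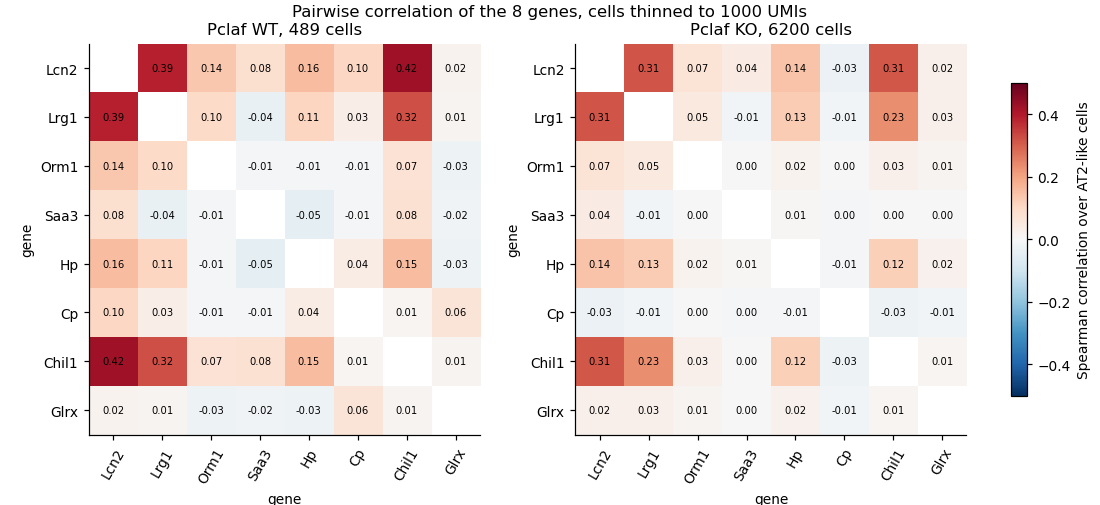
Spearman correlation of each pair of the 8 genes over AT2-like cells thinned to 1000 UMIs, WT (489 cells) and KO (6200 cells), on a color scale from -0.5 to 0.5. The pairs among Lcn2, Lrg1 and Chil1 are highest, 0.23 to 0.42, and pairs with Orm1, Saa3, Cp or Glrx lie between -0.05 and 0.14.

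Cell by cell, Lcn2 and Lrg1 were both found in 112 WT cells where their separate shares give 81.5, and in 1014 KO cells where they give 707. Lcn2 and Chil1 met in 242 WT cells against 210 and in 2788 KO cells against 2538. A median of 2 of the 8 genes was found per cell in each library, and 11.9% (9.13 to 15.1) of WT and 8.65% (7.96 to 9.37) of KO cells held 4 or more. In 11.9% of WT and 10.2% of KO cells none of the 8 was found at this depth.

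Cells rich in Lcn2 were rich in Chil1 and Lrg1. From cells with 0 Lcn2 UMIs (198 WT, 2849 KO) to cells with at least 8 (21 WT, 231 KO), mean Chil1 rose from 1.17 to 4.38 UMIs per cell in WT and from 1.36 to 3.92 in KO. Mean Lrg1 went from 0.172 to 1.52 and from 0.142 to 1.19. Hp went from 0.374 to 0.619 in WT, by way of 0.817 in cells with 2 to 3 Lcn2 UMIs, and from 0.396 to 0.887 in KO. Glrx showed no steady slope. It was at 0.0657 and 0.0488 UMIs in cells without Lcn2 and 0.0952 and 0.0563 in the richest cells, with overlapping intervals, the richest WT cells holding 2 UMIs. In KO cells with 2 to 3 Lcn2 UMIs it was higher, 0.0763 (0.0610 to 0.0942), with an interval apart from that of cells without Lcn2.

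**Figure D5:**
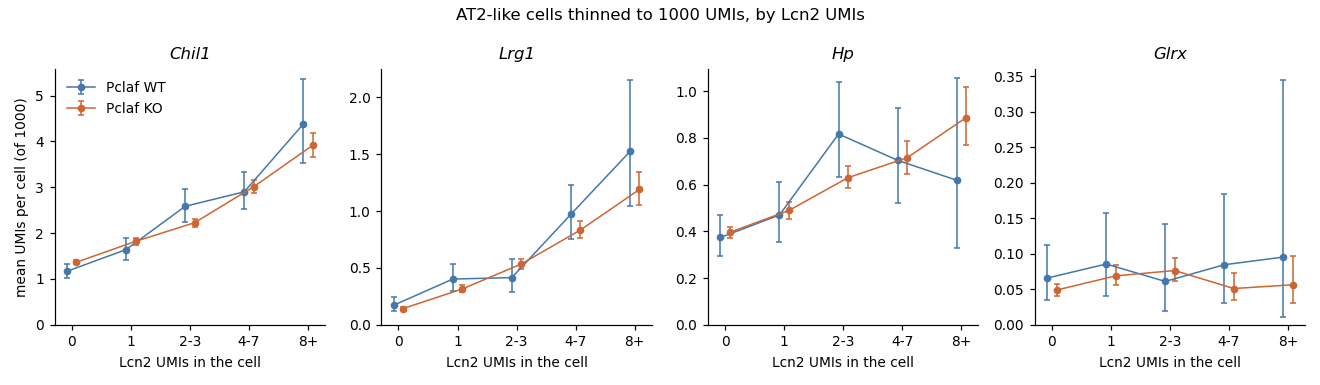
Mean UMIs per cell of Chil1, Lrg1, Hp and Glrx in AT2-like cells thinned to 1000 UMIs, by the number of Lcn2 UMIs in the cell, for both libraries with exact 95% Poisson intervals. Chil1 and Lrg1 climb with Lcn2 in both libraries, to 4.38 and 1.52 UMIs in the richest WT cells, and Glrx stays under 0.1.

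The same bins differed in other RNA as well. From the poorest to the richest Lcn2 cells, Sftpc went from 129.4 to 193.5 UMIs of 1000 in WT and from 150.4 to 212.8 in KO, and nuclear-retained RNAs from 18.6 to 6.71 and from 18.6 to 5.47. With nuclear-retained RNAs, Lcn2 gave -0.234 in WT and -0.263 in KO, Chil1 -0.281 and -0.155, and Lrg1 -0.079 and -0.118. A limit of at least 0.05% nuclear-retained RNA kept 461 of 489 WT and 5795 of 6200 KO cells. Among these, Lcn2 with Chil1 gave 0.41 in WT and 0.31 in KO and Lcn2 with Lrg1 0.38 and 0.30. As few cells were left out, the part of nuclear RNA in these correlations was not tested. Within the 6 clusters taken 1 at a time, Lcn2 with Chil1 lay between 0.28 and 0.49 in WT and between 0.22 and 0.40 in KO, and Lcn2 with Lrg1 between 0.27 and 0.50 in WT and between 0.08 and 0.41 in KO. The coefficient of Lcn2 with Chil1 was positive inside each cluster, and that of Lcn2 with Lrg1 was weak in cluster 13 of the KO library. These coefficients rest on 27 to 154 cells per cluster in WT and 117 to 1815 in KO, so the WT values are rough.

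Lcn2 and Lrg1 were spread unevenly over AT2-like cells. The variance of Lcn2 was 4.06 times its mean in WT and 4.99 times in KO at equal depth, where the median gene had 1.08 in both. Up to 21 and 40 Lcn2 UMIs of 1000 lay in a cell. Chil1 had 2.04 and 1.76, Lrg1 1.76 and 2.16 and Hp 1.51 and 1.37. This ratio was not matched for mean level, which was 1.85 and 1.59 UMIs for Lcn2 and 0.442 and 0.356 for Lrg1. The median gene had a mean of 0.188 and 0.190. Without thinning, the top 5% of AT2-like cells held 33.2% and 35.5% of all Lcn2 UMIs and 20.7% and 20.1% of all Chil1 UMIs. For Lrg1 the top 5% held more, 38.26% and 42.75%, and for Hp 24.3% in both. This share was not matched for level either. Glrx, with 181 and 3145 UMIs and a variance of 1.04 and 1.05 times its mean, gave 36.5% and 29.5%.

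The 10 genes whose cell-to-cell pattern was most like that of the 8 together, out of 1025 compared, were led by Scd1 and Npc2. Likeness was the Spearman correlation with the mean log value of the 8 genes in thinned AT2-like cells. That mean rested mainly on Lcn2, Chil1, Hp and Lrg1, as the remaining members were sparse at this depth. It gave -0.26 in WT and -0.27 in KO with nuclear-retained RNAs, and 0.15 and 0.22 with total UMIs before thinning. Scd1, a fatty acid desaturase, gave 0.38 in WT and 0.31 in KO, Npc2, a cholesterol carrier, 0.30 and 0.35, Lyz2, lysozyme, 0.25 and 0.31, and Cxcl15, lungkine, 0.25 and 0.34. Sftpd, Sftpa1, Elovl1, Sftpc, Napsa and Fabp5 followed, between 0.15 and 0.25, and the median gene gave -0.01 in both. Over 20 classes and 2 libraries, Lcn2 was most like Chil1 (Pearson 0.89 over 40 values of log2 CPM), Chil1 most like Sftpa1 (0.96), Hp like Mgst1 (0.78), Saa3 like C1ra (0.82), Cp like Cacna2d1 (0.82), Orm1 like 4732414G09Rik (0.84), Lrg1 like Trp53inp2 (0.78) and Glrx like Mitf (0.81).

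The rest of the acute-phase pathway was looked at through 63 listed genes, all present in the matrices, of which 42 had at least 10 UMIs in AT2-like cells. At 2-fold, 1 was higher and 5 were lower in KO, which can be read against the 4.80% and 8.09% of all genes, and of the 24 genes with at least 50 UMIs in each library only Ifitm3 was past that line. The others, named after their values were seen, were Lif, with 0 UMIs in WT and 22 in KO, and Il6, Il1b, Serpina3n and C4b, with 9 to 32 UMIs in WT. In AT2-like cells Il1b went from 13.2 CPM in the WT library to 0.914 CPM in the KO library. Of 9 inducing ligands, 4 reached 10 UMIs in AT2-like cells and none reached 50 in both libraries. Il6 was highest in neutrophil-like cells, at 200 and 528 CPM, and Il1b there too, at 10940 and 14740 CPM. Ifitm3 was highest in monocyte-like cells, at 3668 and 4932 CPM. Immune cells made up 43.2% of kept WT and 3.92% of kept KO cells. The part of immune RNA in the AT2-like values of Il6, Il1b and Ifitm3 was not tested.

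Of 9 receptors, 7 reached 10 UMIs and 0 changed 2-fold in either direction. Il6st, the signaling chain shared by the interleukin 6 family, had 81.8 CPM in AT2-like cells of the WT library and 71.9 CPM in those of the KO library, and Osmr, the oncostatin M receptor, had 76.5 and 58.2 CPM. Il1r1 stood at 41.1 and 37.5 CPM. Other classes held more of each, the highest in WT being endothelial cells for Il6st, at 407.5 CPM, and mesenchymal cells for Osmr and Il1r1, at 136 and 131 CPM.

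Of 12 signaling and transcription genes, 11 reached 10 UMIs and 0 passed 2-fold, with a median log2 ratio of -0.43. Stat3, the factor downstream of interleukin 6, stood at 300.5 and 222 CPM, a log2 ratio of -0.44 (-0.55 to -0.33), and Cebpd at 189 and 134 CPM, -0.50 (-0.63 to -0.36). Nfkbia, the inhibitor of NF-kB, gave 88.4 and 62.5 CPM. Cebpa, a factor of mature AT2 cells, went the other way at 114 and 137 CPM, 0.27 (0.09 to 0.45), and was the member of its list that was at least 2-fold above the 4 other groups in both libraries.

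Of 27 other acute-phase proteins, 16 reached 10 UMIs, with 0 at least 2-fold higher and 3 lower in KO, and a median log2 ratio of -0.32. Itih4, a secreted member of the inter-alpha-trypsin inhibitor heavy chains, stood at 179 and 147 CPM and was at least 2-fold above the 4 other groups in both libraries. C3, the central complement protein, stood at 147 and 123 CPM in AT2-like cells and at 5591 and 5724 CPM in mesothelial cells. Lbp, which hands endotoxin to its receptor, gave 76.1 and 74.0 CPM, and Ifitm3, an antiviral membrane protein, 109 and 48.4 CPM. Of 6 proteins that fall in an acute-phase response, 4 reached 10 UMIs and 0 passed 2-fold, with Selenop, a selenium carrier, at 486 and 425 CPM.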

How the data were processed

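The authors deposited, for each of the 2 libraries, a matrix of raw UMI counts per gene and barcode, not normalized, in which no barcode held under 500 UMIs. Per the file headers the matrices were written by Cell Ranger 5.0.0. The submitters' processing notes name Cell Ranger 3.1.0 and GRCm38, so the version is uncertain. Barcodes with over 200 and under 5000 genes and under 20% mitochondrial UMIs were kept. Cells of both libraries were clustered together with Seurat 5.3.0 (2000 variable genes without the 8 genes described, 10 principal components, 20 neighbors, resolution 0.8) and classes were named from marker lists, so they are rebuilt names. Clusters of mixed lineage were left out of all classes. Epithelial and immune cells were clustered again in up to 3 rounds, and clusters marked by another lineage were removed. An epithelial cluster removed in round 1 held 510 WT and 531 KO cells. A mixed cluster with Slc34a2 and Lamp3 among its leading genes held 102 and 38. Club-like and goblet-like clusters were merged as airway secretory-like after the data were seen. Doublets called by Scrublet (in scanpy 1.11.5) made up 7.76% of the WT and 2.70% of the KO library. They were kept in the main values and left out in an alternative.

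UMIs were summed per class and library and divided by the class total (CPM), with exact 95% Poisson intervals. Shares have exact Clopper-Pearson intervals, and log2 ratios the exact conditional interval of 2 Poisson counts. All cover counting error only. A count of 0 allows up to 3 counts. Cells were thinned to 1000 UMIs for shares and correlations. The members and lists were chosen with earlier results of these data known. Named genes were the 8 members and listed pathway genes with at least 50 UMIs in AT2-like cells of both libraries. Lif, Il6, Il1b, Serpina3n and C4b fall outside this rule and were named after their values were seen. The scripts were tested on simulated counts. Python 3.11.15, numpy 2.4.6, scipy 1.17.1, R 4.3.3 and edgeR 4.0.16 (TMM factors only) were used. Alternatives changed the cell filter, clustering, scaling and thinning.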

Additional observations from a re-analysis of the deposited data

Results flagged for a closer look

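Lcn2 differed between the libraries in opposite directions in different classes. In AT2-like cells the log2 ratio of KO over WT was -0.19, in Krt8+-like cells it was 1.84 (1.38 to 2.34), from 48.6 to 174 CPM, and in endothelial cells it was 3.34 (3.06 to 3.62), from 13.6 to 137 CPM. In AT2-like cells the median log2 ratio of all 14926 genes was -0.14, and TMM factors moved that median by 0.16. The Lcn2 value there was thus near that of the median gene. With 1 library per genotype the difference between the classes was not tested. In KO endothelial cells 85 of 180 Lcn2 UMIs lay in 1 barcode, and in WT 37 of 264. Without these barcodes, an alternative chosen after seeing the data, the levels were 11.7 and 73.0 CPM and the log2 ratio 2.65 (2.28 to 3.00). In KO Krt8+-like cells 36 of 716 cells held 83.2% of the Lcn2 UMIs and 1 barcode 115 of 752. Without the richest barcode of each library the log2 ratio there was 2.19 (1.63 to 2.82). Krt8+-like cells did not include the unnamed alveolar cluster, whose nearest marker list was that of Krt8+ cells. The Lcn2 log2 ratio in that cluster was -0.46. Sftpc went from 337 to 3521 CPM in endothelial cells and from 3585 to 9185 CPM in Krt8+-like cells, and the part of AT2 RNA in the Lcn2 values was not tested.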

How the results depend on the processing

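No paired analysis was possible because each genotype has 1 library and no test was run. Lcn2 and Chil1 were at least 2-fold above all 4 other groups under every alternative run. The summed log2 ratio of the 8 genes, -0.08, was near 0 and its sign did not hold: it was 0.082 with TMM factors and 0.003 as a mean of log-normalized values. It was -0.029 without surfactant genes, -0.032 with under 10% mitochondrial UMIs, -0.030 with no upper limit on genes, -0.025 without called doublets, -0.047 with at least 1000 UMIs, and -0.008 both with 1 in 6 KO cells and with 20 principal components. The number of genes higher in KO, 2, was 4 without surfactant genes and 5 with TMM, which move all genes alike and put 39.9% and 53.1% of all genes higher in KO against 34.5%. It was 1 with at least 1000 UMIs, 4 with 20 principal components and 1 in cells with nuclear RNA. With the limits of 200 and 5000 read as UMIs, Lcn2 turned to 0.14, Orm1 to 1.92 and Hp to -0.002. Over all alternatives the log2 ratio ran from -0.27 to 0.12 for Chil1 and from -0.30 to 0.10 for Lrg1. Orm1 was no longer 2-fold lower with TMM (-0.93), without called doublets (-0.75) or with 20 principal components (-0.95). With 1 in 6 KO cells Cp was not (-0.65) and Saa3 was over 2-fold higher (1.62). The median of the 6 pairs rose with depth: in WT from 0.24 to 0.36 at 2000 UMIs, and in KO from 0.13 at 500 UMIs to 0.25 at 2000. In KO it was 0.16 with UMI limits. Without thinning it was 0.50 in WT and 0.52 in KO. Those values are from raw counts of cells of unequal depth, so they also carry depth differences between cells and are not on the same scale. The cause of the other changes was not tested. Depth limits Orm1, Saa3 and Cp, which had 9 to 25 UMIs in WT AT2-like cells.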

Other observations

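An alveolar cluster that the markers did not name, 88 WT and 601 KO cells, had 871 (WT) and 633 (KO) CPM of Lcn2 and 395 and 461 CPM of Chil1. Both genes were below AT2-like cells in both libraries. The marker list nearest to this cluster was that of Krt8+ cells, but Krt8+-like cells held less Lcn2, 48.6 and 174 CPM. In the unnamed cluster Lrg1 stood at 55.9 and 60.1 CPM, against 415 and 397 CPM in AT2-like cells, while Glrx stood at 99.3 and 61.9 CPM, against 74.4 and 71.9 CPM.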
